A study of Mus musculus with 12 samples.

Results

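The genes described here are proteases and protease inhibitors of 3 families: the kallikreins (Klk), the clade B serpins (Serpinb) and the Kazal-type inhibitors (Spink). They were taken by name, as every gene whose symbol begins with Klk, Serpinb or Spink followed by a digit. This rule was met by 77 of the 50600 genes counted, 37 of them Klk, 28 Serpinb and 12 Spink. They were measured by sequencing of polyadenylated RNA from medullary thymic epithelial cells (mTECs), the thymic stroma that presents tissue antigens to T cells in training. Cells with much MHC class II on their surface (mTEC hi) and cells with little of it (mTEC lo) came from thymi of mice 6 to 8 weeks old, with 6 libraries of each. All the mice are labelled as the strain B6.B6CB-Psmb11tm1Smta, either Psmb11-/- (called Psmb11-deficient) or Psmb11+/+ (called WT), where Psmb11 encodes a proteasome subunit of the thymic cortex. In each cell type 2 libraries are Psmb11-deficient and 2 are WT by every label, and in the remaining 2 the title names the other genotype than the source name and strain do. Those 4 libraries were used to compare the cell types and in no main comparison of genotypes. The labels do not say whether libraries came from separate or pooled animals, so the spread behind each p-value is that between libraries and may be technical.

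Kallikreins are secreted serine proteases, made as inactive precursors that are switched on by cleavage, often by each other. Several of them loosen the outer layers of skin by cutting the proteins that hold dead keratinocytes together, and tissue kallikrein releases kinin peptides from kininogen. Clade B serpins act mostly inside cells, where they trap a serine or cysteine protease in a covalent complex, and Kazal-type inhibitors block the active site of trypsin-like proteases and kallikreins. In mTECs many genes that are otherwise confined to skin, salivary gland, gut or testis are transcribed, and the regulator Aire drives a large part of this in mTEC hi.

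Reads assigned to genes numbered 38791960 to 86793594 per library. Levels are in CPM, reads scaled to library size with TMM factors, and in TPM, the authors' length-corrected values, which alone are used to compare levels between genes. The labelled cell types were checked against mTEC genes: Aire averaged 1979 ± 186 CPM in mTEC hi, with 17.6 ± 5.35 CPM in mTEC lo (mean ± SD of 6 libraries each, as in all such pairs of values), and all 12 mTEC markers were detected in both. Psmb11 itself stood at 0.847 and 1.30 CPM in Psmb11-deficient against 10.3 and 7.54 CPM in WT mTEC hi, and at 1.63 and 1.17 CPM in Psmb11-deficient against 12.2 and 7.51 CPM in WT mTEC lo. Among libraries whose labels conflict, Psmb11 was at 1.12 and 1.26 CPM under a knockout title and at 8.16 and 7.10 CPM under a WT title.

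The Klk genes form a single cluster on chromosome 7 (43690418 to 44229618, GRCm38, GENCODE M21). The Serpinb genes lie in clusters on chromosome 1 (12 genes, 106861173 to 107610484) and chromosome 13 (16 genes, 32842092 to 34002794). The start regions of 4 genes are shown because they belong to genes of 1 cluster with unlike changes: Klk1b9 and Klk1, which have closely related transcripts, and Serpinb12 and Serpinb5, which are adjacent. Each window runs from 250 bases before to 50 after the annotated start and is given 5′ to 3′, from RefSeq (GRCm38.p6, all on the plus strand). Capitals mark matches to 3 motifs, searched on either strand. The first, TATAAA, has the letters of the TATA box. Matches were marked anywhere in the window, and that of TATAAA in Serpinb12 begins at position -220. The variant TTTAAA reads alike on both strands. TGANTCA, in which N is any base, is looser than the core that AP-1 factors bind, and binding was not tested. No matches overlap in the windows shown. The windows are those at chr7:43975811-43976110 (Klk1b9), chr7:44225110-44225409 (Klk1), chr1:106934199-106934498 (Serpinb12) and chr1:106860925-106861224 (Serpinb5).
Klk1b9: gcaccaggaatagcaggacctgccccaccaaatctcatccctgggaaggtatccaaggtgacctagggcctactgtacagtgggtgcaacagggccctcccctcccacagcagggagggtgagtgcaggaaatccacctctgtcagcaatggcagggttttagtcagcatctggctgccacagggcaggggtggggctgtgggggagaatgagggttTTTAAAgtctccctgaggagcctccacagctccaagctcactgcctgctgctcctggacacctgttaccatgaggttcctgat
Klk1: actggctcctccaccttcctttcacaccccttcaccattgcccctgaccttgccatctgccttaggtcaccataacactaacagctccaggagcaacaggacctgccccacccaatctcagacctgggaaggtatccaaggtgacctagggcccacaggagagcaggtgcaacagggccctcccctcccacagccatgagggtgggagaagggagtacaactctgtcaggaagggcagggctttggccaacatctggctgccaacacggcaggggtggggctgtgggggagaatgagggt
Serpinb12: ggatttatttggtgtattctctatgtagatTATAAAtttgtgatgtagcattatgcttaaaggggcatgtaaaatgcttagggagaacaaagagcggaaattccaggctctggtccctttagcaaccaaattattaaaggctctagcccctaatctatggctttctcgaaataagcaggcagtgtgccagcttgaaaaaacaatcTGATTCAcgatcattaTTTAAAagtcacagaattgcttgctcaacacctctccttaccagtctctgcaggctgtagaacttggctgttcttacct
Serpinb5: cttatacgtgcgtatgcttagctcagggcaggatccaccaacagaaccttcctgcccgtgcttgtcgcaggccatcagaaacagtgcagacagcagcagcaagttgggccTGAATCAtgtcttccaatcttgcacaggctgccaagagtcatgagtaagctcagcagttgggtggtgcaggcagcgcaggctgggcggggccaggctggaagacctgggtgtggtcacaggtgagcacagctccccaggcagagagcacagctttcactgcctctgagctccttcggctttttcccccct

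RefSeq windows were used for 52 members. Most Spink genes, 9 of 12, lie on chromosome 18, and no window of theirs was used. TTTAAA, a set of letters chosen after the windows had been seen, was present in 18 of the 52 windows (34.6%), against 13.2% of all 32851 windows. It was in the windows of 13 of 13 protein-coding Klk1b genes, beginning at positions -48 to 4 relative to the annotated start. Klk1b9 carries it at position -33. The Klk1 window has no match, but its last 33 bases occur in the Klk1b9 window 1 base before the motif, so that the stretch in question lies beyond the window shown for Klk1. Over the aligned bases the Klk1 window was 77.6% to 86.1% identical to those of the 13 Klk1b genes. TATAAA was in 10 member windows (19.2%, against 13.6% of all windows), 9 of them Serpinb. TGANTCA was in 7 (13.5%, against 7.81%), and all 7 were Serpinb genes, among them both Serpinb12 and Serpinb5, which changed in opposite directions. The median member window held 2 CpG dinucleotides, against 7 in all windows.

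The first comparison asked which of these genes differ between mTEC hi and mTEC lo. The kallikreins were higher in mTEC hi without an exception among those tested, most Serpinb and Spink genes were higher too, and 4 Serpinb genes, among them maspin (Serpinb5), were lower. Of the 77 members, 65 had enough reads to be tested. By edgeR's quasi-likelihood test with Benjamini-Hochberg adjustment over all genes, 59 were higher in mTEC hi and 4 were lower. Among all 23923 genes tested 82.1% were called, 44.2% as higher and 38% as lower. Since 25 of the 65 passed the filter on reads only through mTEC hi, where they are high, that count is no support for a direction. Of the 40 members that reached the filter in all 12 libraries, 34 were higher and 4 lower, with a median log2 fold change of 1.46. Of 17598 such genes in all, 32.9% were higher and 49.1% lower, with a median of -0.18. The libraries of the 2 cell types did not overlap for 36 of the 40 members, against 67.7% of the 17598 genes and 68.8% of all tested genes, so an absence of overlap is common here. Under scaling by library size alone the median log2 fold change of all genes tested was 0.37, against 0.08 under TMM, and 67.0% of the called genes were higher, against 53.8% under TMM. The 4 lower members still had negative values under that scaling, and 3 of them passed.

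The total of the deposited TPM gives the size of each family. Summed over members, Klk genes held 869 ± 46.2 TPM in mTEC hi and 145 ± 16.6 TPM in mTEC lo (SD, n = 6 each). Serpinb genes held 1570 ± 80.4 TPM in mTEC hi and 901 ± 35.6 TPM in mTEC lo. Spink genes held 405 ± 55.1 TPM in mTEC hi and 149 ± 10.7 TPM in mTEC lo. In all 3 families the lowest mTEC hi library was above the highest mTEC lo library. TPM is not scaled by TMM factors, and these sums were not tested between cell types. The 2 scales can part: Spink5 averaged 68.1 TPM in mTEC hi and 62.0 TPM in mTEC lo, but 211 and 240 CPM. In bulk samples a gene's level is set by how many cells transcribe it and by how much each of them makes, and these cannot be told apart here. A few genes made up most of each sum in mTEC lo: Klk1, Klk7 and Klk13 held 69.3% of the Klk total, Serpinb6a, Serpinb1a and Serpinb2 73.5% of the Serpinb total, and Spink1, Spink5 and Spink12 97.0% of the Spink total. In mTEC hi the 3 leading genes held 32.7% of the Klk total (Klk1, Klk1b9 and Klk1b11), 61.5% of the Serpinb total (the same 3 genes as in mTEC lo) and 85.6% of the Spink total (Spink1, Spink5 and Spink4). At least 1 TPM on average was reached by 61 members in mTEC hi and by 35 in mTEC lo.

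All 29 tested Klk genes were higher in mTEC hi, as were 44.2% of all tested genes. Of the 29, 10 passed the filter only through mTEC hi, so that count is no support for a direction. The 19 at the filter in all 12 libraries were all higher, against 32.9% of all genes at that filter. Of the 19, 10 were higher by at least 8-fold, as were 4.91% of all genes at that filter. Over all tested genes, with those that passed through mTEC hi only, the counts were 20 Klk genes and 18% of genes. The size of the difference changed along the cluster. It was below 4-fold in 6 of the first 9 genes, counted from Klk14, and largest at Klk4, Klk2-ps and Klk15. It stayed above 8-fold through the Klk1b genes and was small again at Klk1, the last gene. Klk4, Klk2-ps, Klk15 and Klk12 were below the filter in some or all mTEC lo libraries. They passed it only through mTEC hi, as did some Klk1b genes. Their large differences are therefore no support for a pattern along the cluster.

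**Figure D1:**
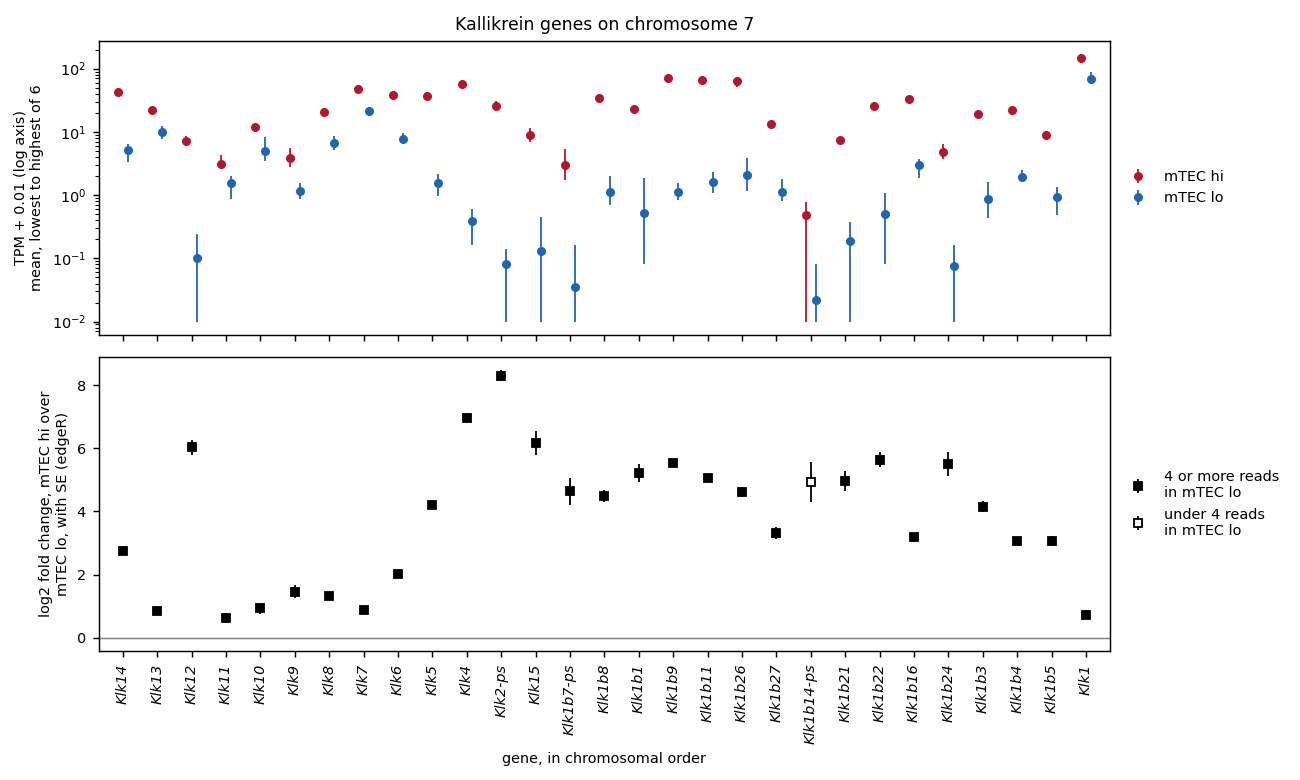
The 29 tested Klk genes in chromosomal order. Top: deposited TPM plus 0.01 on a log axis, mean (point) and lowest to highest of 6 libraries (line) in mTEC hi (red) and mTEC lo (blue). Bottom: edgeR log2 fold change, mTEC hi over mTEC lo, with its SE; open squares mark genes with under 4 reads in mTEC lo. All points lie above 0, with Klk2-ps highest at 8.30 and Klk11 lowest at 0.63.

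Klk4, the protease that clears enamel matrix protein in forming teeth, had a lowest, median and highest level of 37.9, 39.6 and 42.5 CPM in mTEC hi, against 0.127, 0.328 and 0.500 CPM in mTEC lo. Every mTEC hi library was far above every mTEC lo library, and the mTEC hi values were close together (SD 1.73 CPM). The log2 fold change was 6.96 (SE 0.14, edgeR adjusted p = 5.59e-17). Its neighbour Klk2-ps, a transcribed pseudogene, had 45.1, 49.4 and 56.0 CPM in mTEC hi, against 0.0181, 0.188 and 0.264 CPM in mTEC lo. Its change of 8.30 (SE 0.17, edgeR adjusted p = 4.54e-17) was the largest among Klk genes. Klk15, next in line, had 1.53, 2.13 and 2.80 CPM in mTEC hi, against 0, 0.0175 and 0.104 CPM in mTEC lo, where 10 reads were counted in all (log2 fold change 6.17, SE 0.39, edgeR adjusted p = 1.08e-10). Klk12 stood apart from its own neighbours at the other end, with 3.75, 4.73 and 5.51 CPM in mTEC hi, against 0.0344, 0.0578 and 0.155 CPM in mTEC lo (log2 fold change 6.03, SE 0.25, edgeR adjusted p = 2.89e-13). The genes on either side of it, Klk13 and Klk11, changed by 0.85 and 0.63. Since Klk4, Klk2-ps, Klk15 and Klk12 passed the filter only through mTEC hi, their calls are no support for a direction.

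The kallikreins of the skin barrier split by size of change. Klk5, which starts the activation cascade in the upper epidermis, had 20.03, 23.7 and 25.2 CPM in mTEC hi, against 0.871, 1.28 and 1.65 CPM in mTEC lo (log2 fold change 4.20, SE 0.13, edgeR adjusted p = 6.27e-15). Klk14, which also cuts corneodesmosomes, was at 23.5, 27.3 and 33.7 CPM in mTEC hi and at 2.98, 4.38 and 5.31 CPM in mTEC lo (2.76, SE 0.13). Klk7, the chymotrypsin-like enzyme of the stratum corneum, was at 46.0, 53.8 and 60.3 CPM in mTEC hi and at 24.1, 30.3 and 32.5 CPM in mTEC lo (0.88, SE 0.08). For each of the 3 genes the groups did not overlap. In mTEC lo Klk7 followed Klk1 in abundance by TPM (21.3 ± 2.51) and Klk5 was low (1.54 ± 0.40 TPM), while in mTEC hi they were at 47.8 ± 4.90 and 37.6 ± 2.76 TPM. Klk13, next by TPM in mTEC lo, was at 20.1, 24.1 and 26.5 CPM in mTEC hi, against 11.6, 12.9 and 15.2 CPM in mTEC lo (0.85, SE 0.08). Klk6, known from myelin-forming cells of the brain, and Klk8, known from the hippocampus and skin, changed by 2.01 and 1.33. The remaining genes of this stretch, Klk9, Klk10 and Klk11, changed by 1.46, 0.93 and 0.63. Klk8 and Klk14 share exon bases with the opposite-strand transcript 2310002F09Rik, and Klk15 with Gm44756. The counts ignore strand, so reads of these pairs cannot be told apart; the partners had 692 and 185 reads over all libraries, against 4162 for Klk8, 12087 for Klk14 and 849 for Klk15.

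The 13 protein-coding Klk1b genes are a rodent expansion of tissue kallikrein, known as products of the submandibular gland, and include binding partners of nerve and epidermal growth factor. Each was higher in mTEC hi, with log2 fold changes between 3.06 (Klk1b5, SE 0.15) and 5.64 (Klk1b22). Each estimate was thus above 8-fold, but no test against 8-fold was made. Klk1b1, Klk1b21, Klk1b22 and Klk1b24 were below the filter in some or all mTEC lo libraries, so they passed it only through mTEC hi. A call as higher by at least 8-fold was met by 18% of all tested genes and 4.91% of those at the filter in all 12 libraries. Klk1b9, an epidermal growth factor-binding protein, had a lowest, median and highest level of 28.2, 30.1 and 33.8 CPM in mTEC hi, against 0.518, 0.637 and 0.877 CPM in mTEC lo (log2 fold change 5.54, SE 0.11, edgeR adjusted p = 3.76e-17). Klk1b22, another such protein, had 10.1, 12.04 and 13.6 CPM in mTEC hi, against 0.0907, 0.193 and 0.553 CPM in mTEC lo (5.64, SE 0.23, edgeR adjusted p = 2.33e-13). Klk1b11 had 24.6, 27.9 and 34.0 CPM in mTEC hi, against 0.607, 0.827 and 1.23 CPM in mTEC lo (5.07, SE 0.14, edgeR adjusted p = 1.14e-15). In none of these 3 genes did the groups overlap. Klk1b3, the gamma subunit of nerve growth factor, and Klk1b4, its alpha subunit, changed by 4.15 and 3.08. By TPM in mTEC hi the Klk1b genes ran from 70.9 ± 3.87 (Klk1b9), 66.6 ± 8.21 (Klk1b11) and 63.3 ± 6.64 (Klk1b26), which lie within their spread of each other, to 4.77 ± 1.01 (Klk1b24).

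Klk1, the tissue kallikrein that releases kinins, differed from its copies. It had 45.9, 56.2 and 61.6 CPM in mTEC hi, against 23.6, 33.9 and 41.5 CPM in mTEC lo. The groups stayed apart, but the log2 fold change was 0.72 (SE 0.10, edgeR adjusted p = 5.89e-06), smaller than that of any of the 13 Klk1b genes. By TPM it was the most abundant kallikrein in both cell types, at 147 ± 15.7 in mTEC hi and 69.3 ± 10.8 in mTEC lo. The longest transcripts of Klk1 and the Klk1b genes are 89.0% to 94.2% identical to their closest copy, and no source used here states how the authors counted reads that match several copies. Levels of single copies are uncertain to that extent. With the RSEM counts, which divide such reads by estimation, Klk1 changed by 0.83, Klk1b9 by 5.70 and Klk1b22 by 5.44. RSEM's posterior SD was below 1% of the count for each of the coding genes of this set apart from Klk1b5 (1.33%). Of the 11 Klk pseudogenes 3 could be tested, and Klk1b7-ps (1.18 ± 0.29 CPM in mTEC hi, 0.0476 ± 0.0406 CPM in mTEC lo) is the only one besides Klk2-ps with a mean of at least 1 CPM.

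Among clade B serpins the changes went both ways. Of 28 genes 25 were tested, with 20 higher and 4 lower in mTEC hi, against 44.2% higher and 38% lower of all tested genes. Of the 25, 9 passed the filter only through mTEC hi. Of the 16 at the filter in all libraries 11 were higher and 4 lower. Of all genes at that filter 32.9% were higher and 49.1% lower. The largest rises were of genes near absent in mTEC lo. Among these, Serpinb13, Serpinb9b, Serpinb6e, Serpinb3d and Serpinb3b passed the filter only through mTEC hi, so their calls are no support for a direction. The genes of highest TPM, Serpinb1a and Serpinb6a, changed by 0.29 and -0.46.

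**Figure D2:**
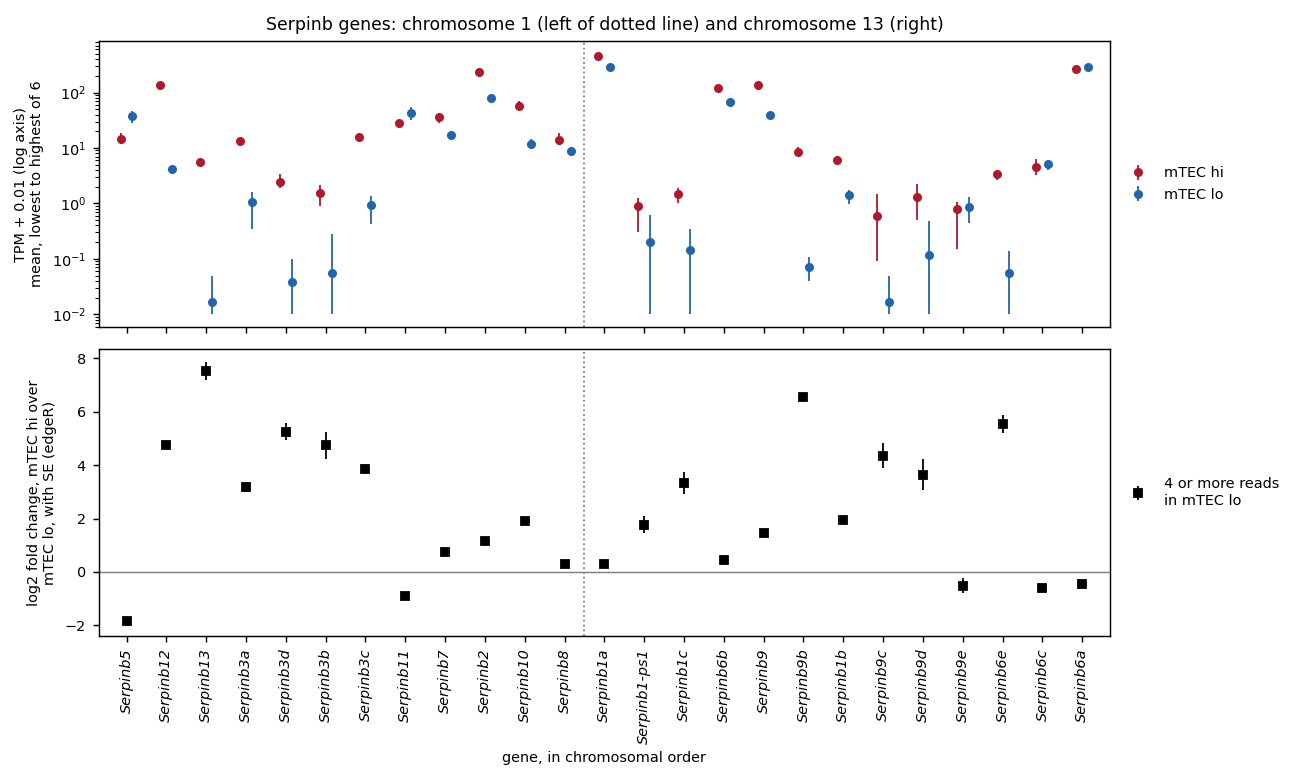
The 25 tested Serpinb genes in chromosomal order, chromosome 1 left of the dotted line and chromosome 13 right of it. Top: deposited TPM plus 0.01 on a log axis, mean and lowest to highest of 6 libraries in mTEC hi (red) and mTEC lo (blue). Bottom: edgeR log2 fold change, mTEC hi over mTEC lo, with its SE. Changes run from -1.82 (Serpinb5) to 7.52 (Serpinb13), and these genes lie in the same cluster.

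Serpinb12, an inhibitor of trypsin-like proteases, had 107, 130 and 139 CPM in mTEC hi, against 4.14, 4.51 and 5.51 CPM in mTEC lo. The groups were far apart, with a log2 fold change of 4.76 (SE 0.08, edgeR adjusted p = 3.77e-18). Serpinb13, an inhibitor of cathepsins known from keratinocytes, had 5.18, 5.58 and 6.47 CPM in mTEC hi, against 0, 0.0172 and 0.0893 CPM in mTEC lo. In mTEC lo it rested on 10 reads over 6 libraries (7.52, SE 0.34, edgeR adjusted p = 1.13e-12). Serpinb12 lies between Serpinb5 and Serpinb13 on the chromosome. Serpinb5, or maspin, an epithelial serpin that does not inhibit proteases, had 14.1, 15.3 and 18.8 CPM in mTEC hi, against 47.6, 55.8 and 70.6 CPM in mTEC lo. It was lower in every mTEC hi library than in any mTEC lo library, with a log2 fold change of -1.82 (SE 0.08, edgeR adjusted p = 1.51e-12). In the same cluster Serpinb11 was at 31.1, 34.6 and 40.2 CPM in mTEC hi, against 46.8, 65.2 and 88.5 CPM in mTEC lo (-0.89, SE 0.11, edgeR adjusted p = 1.35e-06). The groups again did not overlap, and the mTEC lo libraries were spread more widely.

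The mouse Serpinb3 genes correspond to the squamous cell carcinoma antigens of human epithelia. All 4 were higher in mTEC hi: Serpinb3d by a log2 fold change of 5.25 (SE 0.31), Serpinb3b by 4.74 (SE 0.49), Serpinb3c by 3.87 (SE 0.18) and Serpinb3a by 3.19 (SE 0.18). Serpinb3d had 2.003, 2.54 and 2.92 CPM in mTEC hi, against 0.0181, 0.0619 and 0.121 CPM in mTEC lo (edgeR adjusted p = 4.5e-11). Serpinb3b had 1.12, 1.59 and 2.18 CPM in mTEC hi, against 0, 0.0268 and 0.189 CPM in mTEC lo (edgeR adjusted p = 9.8e-08). Neither gene overlapped between the groups. Their transcripts are 88.9% to 94.0% identical to the closest copy, and Serpinb3b shares 35 exon bases with Serpinb3c on the same strand, so their separate levels are uncertain.

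Serpinb2, an inhibitor of plasminogen activators, came after Serpinb1a and Serpinb6a by TPM in both cell types. It had 204, 264 and 316 CPM in mTEC hi, against 97.5, 115 and 138 CPM in mTEC lo (log2 fold change 1.16, SE 0.10, edgeR adjusted p = 8.59e-09). Serpinb10, annotated as a polymorphic pseudogene and known from haematopoietic cells, overlaps Serpinb2 by 291 exon bases on the same strand. It changed by 1.92 (SE 0.09). Serpinb7, known as megsin, was at 37.8 ± 4.23 CPM in mTEC hi, against 22.8 ± 3.56 CPM in mTEC lo (0.73, SE 0.08). Serpinb8, an inhibitor of furin, was at 19.2 ± 1.10 CPM in mTEC hi, against 15.9 ± 2.14 CPM in mTEC lo, and although its call was positive (0.28, SE 0.07, edgeR adjusted p = 0.00126) the groups overlapped.

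On chromosome 13, Serpinb1a, an inhibitor of neutrophil elastase and cathepsin G, was the most abundant member of all in mTEC hi by TPM (459 ± 29.5, against 289 ± 14.9 in mTEC lo). It had 462, 484 and 580 CPM in mTEC hi, against 382, 412 and 437 CPM in mTEC lo. The groups did not overlap, and the log2 fold change was 0.29 (SE 0.05, edgeR adjusted p = 6.02e-05). Serpinb6a, a broadly expressed inhibitor of cathepsin G, led in mTEC lo with 292 ± 18.5 TPM, which lies within the spread of Serpinb1a there, and stood at 269 ± 9.41 TPM in mTEC hi. Its counts gave 187, 199 and 206 CPM in mTEC hi, against 251, 262 and 308 CPM in mTEC lo. This was a fall by 0.46 on the log2 scale (SE 0.05, edgeR adjusted p = 5.81e-08) with no overlap. Serpinb6a shares exon bases with Ripk1, Nqo2 and 1110046J04Rik on the opposite strand, which had 23770, 20568 and 2390 reads over all libraries, against 171662 for Serpinb6a. Serpinb6c had 3.13, 3.44 and 4.84 CPM in mTEC hi, against 4.20, 5.68 and 7.02 CPM in mTEC lo. The groups overlapped, and the log2 fold change was -0.58 (SE 0.14, edgeR adjusted p = 0.000743). In all 6 sets of libraries with the same title the gene was lower in mTEC hi, though these were not taken as true pairs. With scaling by library size alone the log2 fold change was -0.30 and missed the threshold (edgeR adjusted p = 0.0529).

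Serpinb6e and Serpinb6b went the opposite way, and Serpinb6d was not tested. Serpinb6e had 2.83, 3.63 and 4.49 CPM in mTEC hi, against 0, 0.0635 and 0.163 CPM in mTEC lo (log2 fold change 5.53, SE 0.33, edgeR adjusted p = 6.08e-11). Serpinb6b was at 131 ± 6.33 CPM in mTEC hi, against 94.7 ± 8.27 CPM in mTEC lo (0.46, SE 0.06). Serpinb6e was thus close to absent in mTEC lo, while Serpinb6b was abundant in both.

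Serpinb9 inhibits granzyme B, the protease that cytotoxic cells release into their targets, and has several closely related copies in the mouse. Serpinb9 itself had 249, 271 and 306 CPM in mTEC hi, against 90.4, 102 and 111 CPM in mTEC lo, with a log2 fold change of 1.46 (SE 0.06, edgeR adjusted p = 1.08e-13). Serpinb9b had 14.5, 15.4 and 19.8 CPM in mTEC hi, against 0.0942, 0.155 and 0.276 CPM in mTEC lo (6.56, SE 0.16, edgeR adjusted p = 4.27e-16). In both genes the groups were clearly apart. Serpinb9e was at 0.832 ± 0.304 CPM in mTEC hi, against 1.18 ± 0.393 CPM in mTEC lo and missed the threshold (-0.52, SE 0.28, edgeR adjusted p = 0.0933), with overlapping groups. Without replicate 3 of mTEC lo with conflicting labels its edgeR adjusted p was 0.0357. Among the 7 Serpinb9 genes the transcripts are 77.0% to 97.7% identical to the closest copy. Of the Serpinb1 copies, Serpinb1b (6.72 ± 0.584 CPM in mTEC hi, 1.73 ± 0.217 CPM in mTEC lo) and Serpinb1c (1.65 ± 0.178 CPM in mTEC hi, 0.165 ± 0.134 CPM in mTEC lo) changed by 1.95 and 3.33, more than Serpinb1a.

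Serpinb1a, Serpinb2, Serpinb9 and Serpinb10 are also known from blood cells, and markers of such cells were higher in mTEC hi. The 5 B cell markers summed to 44.3 to 50.5 CPM in mTEC hi libraries and to 2.41 to 4.16 CPM in mTEC lo libraries, and 5 of 5 were called higher. For dendritic cells and macrophages the sums were 493.4 to 536 CPM in mTEC hi, against 68.8 to 98.4 CPM in mTEC lo, with 6 of 7 higher and Mpeg1 lower, and Lyz2 carried most of the mTEC hi sum (425 ± 15.2 CPM). For neutrophils and mast cells they were 402 to 461 CPM in mTEC hi, against 79.4 to 119 CPM in mTEC lo, with 7 of 7 higher. Kit, at 113 ± 5.72 CPM in mTEC hi, against 92.5 ± 15.3 CPM in mTEC lo, made up most of the mTEC lo sum, while Ly6g and S100a8 changed by 7.70 and 5.58. Of 5 markers of NK and cytotoxic T cells, 3 were tested and all 3 were higher (sums of 12.5 to 16.3 CPM in mTEC hi, against 0.275 to 0.732 CPM in mTEC lo). No marker of these 4 lists had a mean of 0 CPM in either cell type. Some were at 0 in single libraries, and Ncr1 had a median of 0 CPM in mTEC lo. The filter in all 12 libraries was reached by 2 B cell, 6 dendritic cell and macrophage and 4 neutrophil and mast cell markers. No NK or cytotoxic T cell marker reached it. Of those that did, 2, 5 and 4 were higher, and Mpeg1 was lower. The other markers tested in these lists passed only through mTEC hi, so their count is no support for a direction. Of all tested genes 44.2% were higher and 38% lower. Of all genes at the filter in all 12 libraries 32.9% were higher and 49.1% lower. Of 6 thymocyte markers 3 were higher and 0 lower (sums of 35.9 to 108 CPM in mTEC hi, against 24.8 to 62.8 CPM in mTEC lo), and 4 of 4 tuft cell markers were lower (240 to 353 CPM in mTEC hi, against 1148 to 1755 CPM in mTEC lo). The part of such cells in the serpin results was not tested. Of 8 keratinocyte markers 3 were higher (Krt1, Krt10 and Krt77) and 2 lower (Krtdap and Sbsn), with sums of 475 to 740 CPM in mTEC hi, against 334 to 439 CPM in mTEC lo. The part of cells of that kind in the kallikrein results was not tested either.

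In the Spink family 10 of the 11 tested genes were higher in mTEC hi and the other, Spink5, did not pass. Only 5 of the 11 were at the filter in all libraries, 4 of them higher. For the other 6 (Spink2, Spink6, Spink7, Spink10, Spink13 and Spink14) the direction was set in part by the filter. Of all tested genes 44.2% were higher, and of all genes at the filter in all 12 libraries 32.9%.

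**Figure D3:**
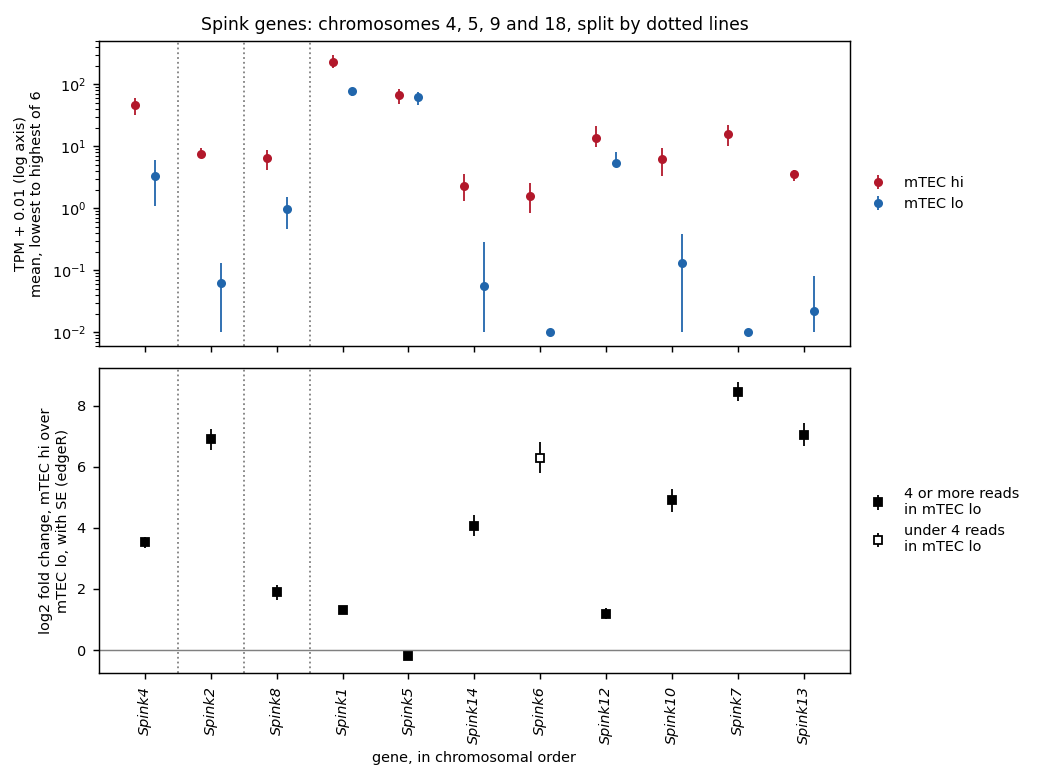
The 11 tested Spink genes in chromosomal order, with dotted lines between chromosomes 4, 5, 9 and 18. Top: deposited TPM plus 0.01 on a log axis, mean and lowest to highest of 6 libraries in mTEC hi (red) and mTEC lo (blue). Bottom: edgeR log2 fold change, mTEC hi over mTEC lo, with its SE; the open square marks Spink6, with 3 reads in mTEC lo. Spink1 leads by TPM in both cell types and Spink5 lies at -0.19.

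Spink5 encodes LEKTI, the inhibitor of the kallikreins KLK5, KLK7 and KLK14 in human skin. It had 154, 213 and 271 CPM in mTEC hi, against 177, 239 and 289 CPM in mTEC lo. The groups overlapped over most of their range, and the log2 fold change of -0.19 (SE 0.12) missed the threshold (edgeR adjusted p = 0.167). It passed as lower when no filter was used (edgeR adjusted p = 0.000988), and without Psmb11-deficient replicate 2 of mTEC hi (0.0108) or replicate 1 of mTEC lo (0.0336). A missed threshold does not show equal levels. Klk5, Klk7 and Klk14 were each higher in mTEC hi, as given above, and the difference between their changes and that of Spink5 was not tested. Spink1, the pancreatic secretory trypsin inhibitor, was the most abundant Spink gene by TPM, at 231 ± 42.6 in mTEC hi and 77.2 ± 7.35 in mTEC lo. It had 31.5, 41.4 and 58.0 CPM in mTEC hi, against 14.1, 18.2 and 19.9 CPM in mTEC lo (1.32, SE 0.10, edgeR adjusted p = 1.88e-09), with no overlap. Spink12 had 6.17, 8.22 and 11.9 CPM in mTEC hi, against 3.15, 3.42 and 5.61 CPM in mTEC lo (1.19, SE 0.18, edgeR adjusted p = 1.04e-05). Its highest mTEC lo library came close to the lowest mTEC hi library without reaching it.

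The largest rises were of genes with almost no read in mTEC lo. Spink7, known from oesophageal epithelium, had 4.34, 4.64 and 5.56 CPM in mTEC hi, with 1891 reads over the 6 libraries, against 4 reads in mTEC lo (log2 fold change 8.46, SE 0.32, edgeR adjusted p = 8.52e-14). Its RSEM counts were 0.0994 of its read counts in mTEC hi, far below the ratio of 0.507 to 0.535 for whole libraries, so its TPM (15.8 ± 4.14 in mTEC hi) is low relative to its reads. Spink13, known from the epididymis, had 1.63, 1.78 and 1.98 CPM in mTEC hi (690 reads), against 4 reads in mTEC lo (7.05, SE 0.38, edgeR adjusted p = 1.37e-11). Spink2, an inhibitor made in the testis, had 2.33, 3.15 and 3.31 CPM in mTEC hi (1131 reads), against 8 reads in mTEC lo (6.90, SE 0.34, edgeR adjusted p = 4.04e-12). In mTEC lo these 3 genes thus rested on 4 to 8 reads over 6 libraries. Spink10 had 2.62, 2.89 and 4.01 CPM in mTEC hi, against 0, 0.0965 and 0.214 CPM in mTEC lo (4.90, SE 0.37, edgeR adjusted p = 1.54e-09). Spink14 had 0.907, 1.22 and 1.71 CPM in mTEC hi, against 0.0173, 0.0734 and 0.127 CPM in mTEC lo (4.07, SE 0.34, edgeR adjusted p = 4.56e-09). Spink4, known from goblet cells of the gut, had 5.75, 7.56 and 10.2 CPM in mTEC hi, against 0.512, 0.628 and 0.980 CPM in mTEC lo (3.52, SE 0.18, edgeR adjusted p = 6.6e-12). In none of these genes did the groups overlap. Spink6, an inhibitor of kallikreins in human skin, had 336 reads in mTEC hi and 3 in mTEC lo, and Spink8 was at 2.06 ± 0.363 CPM in mTEC hi, against 0.551 ± 0.270 CPM in mTEC lo (1.89, SE 0.25).

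**Figure D4:**
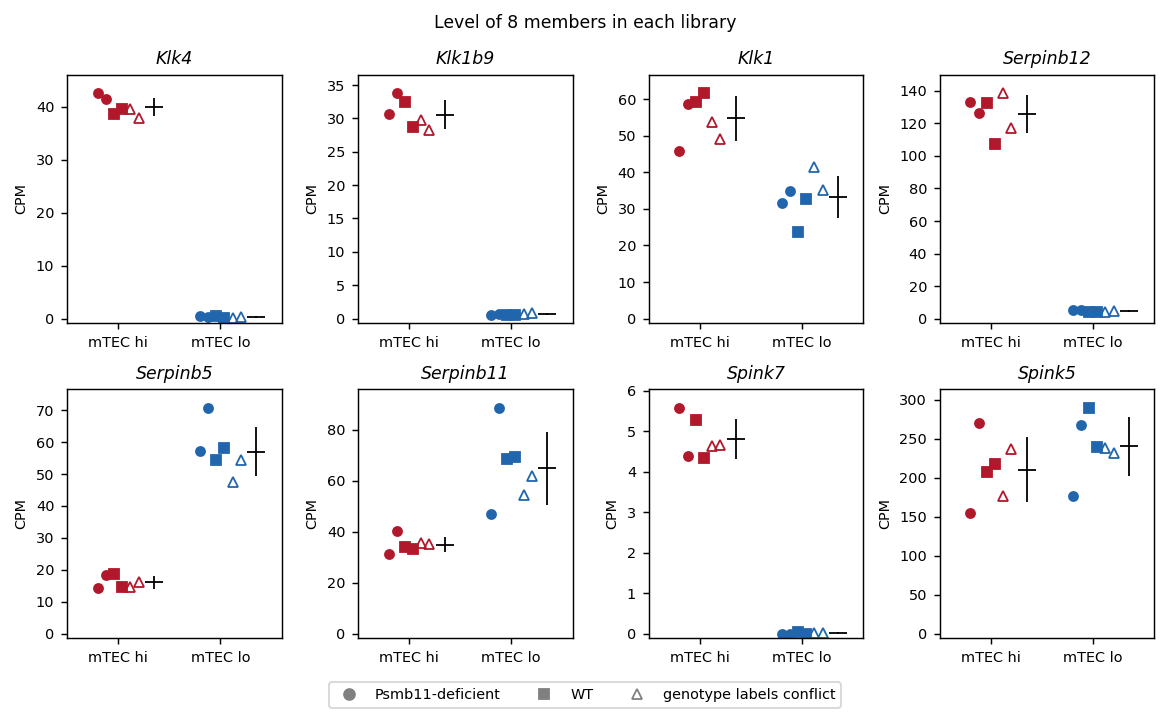
Level of 8 members in each of the 12 libraries, in CPM, the axis starting just below 0; the crosses give the mean and SD of 6 libraries. Filled circles are Psmb11-deficient, filled squares WT and open triangles libraries with conflicting genotype labels, in mTEC hi (red) and mTEC lo (blue). The cell types do not overlap in 7 panels, with Serpinb5 and Serpinb11 lower in mTEC hi, and overlap in that of Spink5.

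Among members with a mean of at least 1 CPM the coefficient of variation had a median of 10.8% for Klk, 10.8% for Serpinb and 18.7% for Spink genes in mTEC hi. In mTEC lo it was 19.5% for Klk, 13.3% for Serpinb and 15.9% for Spink genes. Over all genes at that level the medians were 8.33% in mTEC hi and 9.46% in mTEC lo. The 12 members that could not be tested were 8 Klk pseudogenes, Serpinb6d, Serpinb9f, Serpinb9g and Spink11. They had 5 to 217 reads over the 6 mTEC hi libraries and 0 to 6 over the 6 mTEC lo libraries, and each of the 12 had more reads in mTEC hi.

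Genes that act with these families were counted from 3 lists: proteases that activate kallikreins or that serpins trap, other protease inhibitors, and kallikrein substrates, receptors and the kinin system. Of 29 proteases tested 17 were higher and 7 lower in mTEC hi, with a median log2 fold change of 1.36 against 0.08 for all genes, of which 44.2% were higher and 38% lower. Of the 23 proteases at the filter in all 12 libraries 11 were higher and 7 lower, with a median of 0.56. Of all genes at that filter 32.9% were higher and 49.1% lower, with a median of -0.18. Granzyme B (Gzmb), the target of Serpinb9, was at 11.6 ± 0.946 CPM in mTEC hi, against 0.126 ± 0.121 CPM in mTEC lo (6.53, SE 0.27), and the airway-type protease Tmprss11a and cathepsin G (Ctsg) changed by 6.11 and 5.79. All of these passed the filter only through mTEC hi, so their calls are no support for a direction. Gzmb is also 1 of the NK and cytotoxic T cell markers given above and makes up most of their sum. Ctsg and, below, Camp are also products of neutrophils, whose markers were higher in mTEC hi, and the part of such cells was not tested. Cathepsin L (Ctsl), which processes antigen in the thymic cortex, was at 204 ± 20.8 CPM in mTEC hi, against 1717 ± 134 CPM in mTEC lo (-3.08, SE 0.07). It is also 1 of 5 markers of cortical epithelium, of which 4 were lower, with sums of 346 to 406 CPM in mTEC hi, against 1848 to 2338 CPM in mTEC lo, and their part in this result was not tested. Ctsl was followed by Prss27 (-1.49) and Tmprss11g (-1.06). Matriptase (St14), an activator of epidermal kallikreins, did not pass (-0.13, edgeR adjusted p = 0.063). Of 24 other inhibitors tested 12 were higher and 10 lower, with a median of 0.07, which is near the shares over all genes, and of the 23 at the filter in all 12 libraries 11 were higher and 10 lower. Alpha-2-macroglobulin (A2m, 7.13), the secreted antiprotease Slpi (3.28) and Pi16 (2.76) led the rises, and Serpina3n (-3.10), the collagen chaperone Serpinh1 (-2.49) and the metalloproteinase inhibitor Timp2 (-2.02) led the falls. A2m passed the filter only through mTEC hi, so its call is no support for a direction. Of 17 substrates and receptors, all at the filter in all 12 libraries, 11 were higher and 3 lower, with a median of 1.13. The shares of all genes at that filter were 32.9% higher and 49.1% lower. Kininogen (Kng1) changed by 5.01, the cathelicidin Camp, which kallikreins of the skin process, by 4.81, and meprin A (Mep1a) by 3.92. The kinin receptors Bdkrb1 and Bdkrb2 changed by 1.90 and 1.13. The thrombin receptor F2r (-2.61), desmoglein 3 (Dsg3, -0.63) and the protease-activated receptor F2rl1 (-0.31) were lower in mTEC hi.

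The series was designed to compare Psmb11-deficient with WT cells, with 2 libraries each per cell type free of label conflicts. No member passed the threshold in mTEC hi, in mTEC lo or for the interaction of genotype and cell type, among 73 members tested by edgeR. Of all 26642 genes tested 0.00375% were called in mTEC hi, 0.015% in mTEC lo (0.00375% as higher and 0.0113% as lower) and 0% for the interaction. At an unadjusted p under 0.05 there were 0 members in mTEC hi (3.45% of all genes), 11 members in mTEC lo (11.3% of all genes) and 5 for the interaction (4.41% of all genes). The median log2 fold change of the members was 0.08 in mTEC hi and 0.19 in mTEC lo. The 2 libraries of each genotype did not overlap for 23 members in mTEC hi (31.5%) and 21 in mTEC lo (28.8%), against 36.2% of all genes in each cell type. DESeq2 gave 0 members in mTEC hi and 1 in mTEC lo.

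**Figure D5:**
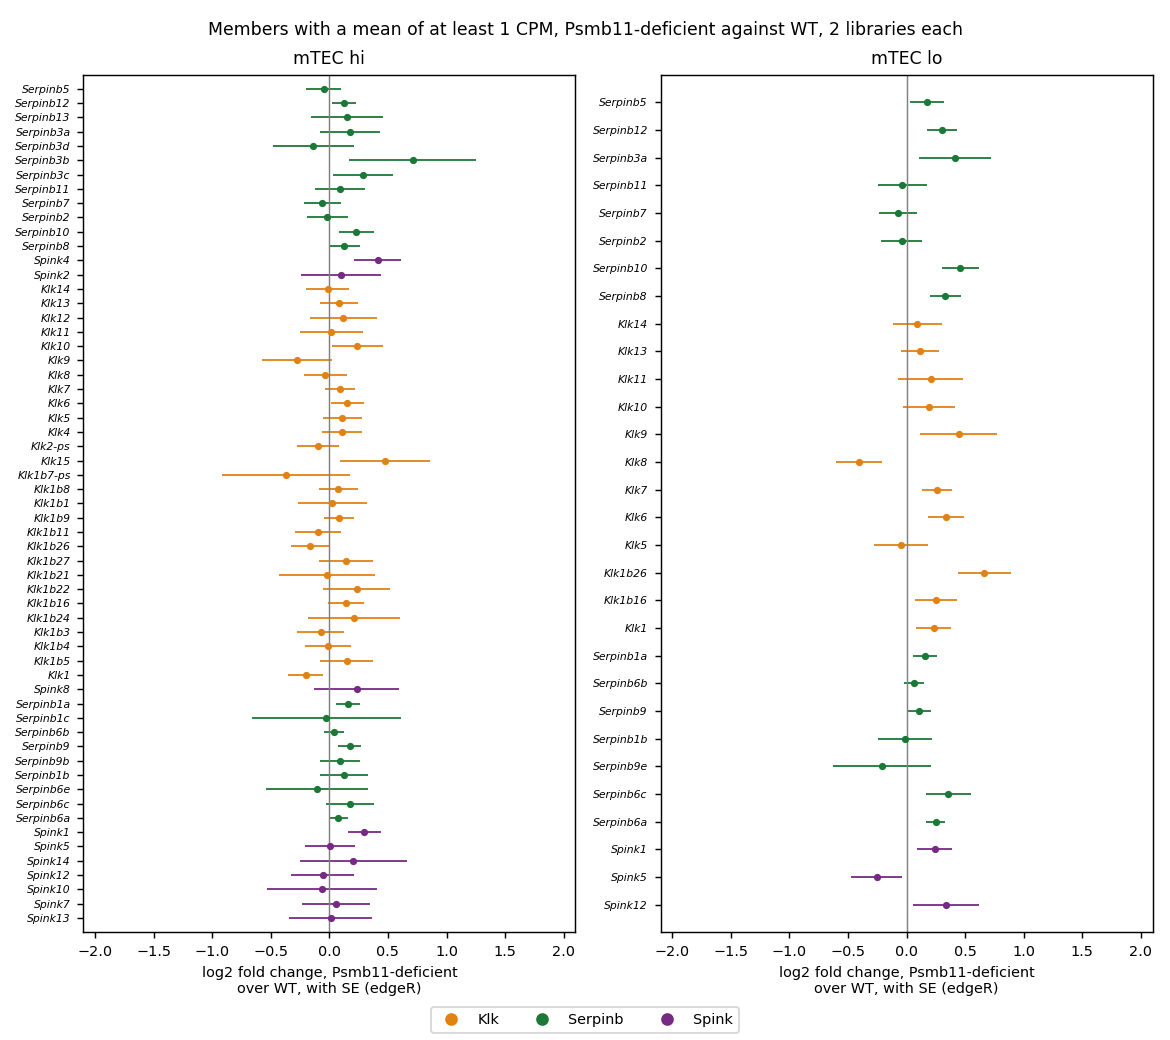
edgeR log2 fold change, Psmb11-deficient over WT, with its SE, for members with a mean of at least 1 CPM in mTEC hi (left, 59 genes) and in mTEC lo (right, 30 genes), 2 libraries per genotype. Colours mark Klk (orange), Serpinb (green) and Spink (purple). None of these values passed the threshold.

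In mTEC hi the members of lowest p in each family did not pass. Spink1 was at 41.6 and 58.0 CPM in Psmb11-deficient libraries and at 41.2 and 39.9 CPM in WT libraries (log2 fold change 0.30, SE 0.14, edgeR adjusted p = 1). Serpinb9 was at 274 and 306 CPM in Psmb11-deficient libraries and at 268 and 249 CPM in WT libraries (0.17, SE 0.10, edgeR adjusted p = 1). Klk1 was at 45.9 and 58.8 CPM in Psmb11-deficient libraries and at 59.1 and 61.6 CPM in WT libraries (-0.20, SE 0.15, edgeR adjusted p = 1). For Spink1 and Serpinb9 both Psmb11-deficient values were the higher ones, and for Klk1 both were the lower ones.

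In mTEC lo Klk1b8 came closest to the threshold. It had 84 and 55 reads (1.30 and 0.950 CPM) in Psmb11-deficient libraries, against 21 and 21 reads (0.375 and 0.381 CPM) in WT libraries. The log2 fold change was 1.57 (SE 0.26, edgeR adjusted p = 0.0739), and DESeq2 gave an adjusted p of 0.000507. Without replicate 1 or replicate 2 of Psmb11-deficient mTEC lo, which leaves 1 library in that arm, the log2 fold change was 1.32 or 1.77. In the libraries with conflicting labels Klk1b8 had 37 reads (0.697 CPM) under the WT title and 28 reads (0.481 CPM) under the knockout title. Both lie between the 2 genotypes, but the library with the WT title is the higher. Psmb11 stood at 7.10 CPM in that library and at 1.26 CPM in the one with the knockout title. Grouped by title, the genotypes overlapped for Klk1b8. In mTEC hi the same gene stood at 14.8 and 16.4 CPM in Psmb11-deficient libraries and at 15.6 and 14.0 CPM in WT libraries, and the interaction was -1.49 (SE 0.31, edgeR adjusted p = 0.821). Psmb11-deficient replicate 1 of mTEC lo was the highest mTEC lo library also for Klk1b1 (53 reads) and Klk1b26 (222 reads), genes named after their values were seen. Serpinb9d had 9 and 16 reads in Psmb11-deficient libraries and 2 and 0 reads in WT libraries of mTEC lo (edgeR adjusted p = 0.262), and Spink13 had 2 and 1 reads in Psmb11-deficient libraries and no read in WT libraries (edgeR adjusted p = 0.444). With no filter Serpinb9d passed in mTEC lo (log2 fold change 3.37, edgeR adjusted p = 0.0164) and for the interaction (-3.93, edgeR adjusted p = 0.0401). In mTEC lo these calls rest on at most 16 reads in a library. Summed over the families, Klk genes held 801 and 911 TPM in Psmb11-deficient and 860 and 922 TPM in WT mTEC hi, and 149 and 139 TPM in Psmb11-deficient and 133 and 134 TPM in WT mTEC lo. Serpinb genes held 1501 and 1676 TPM in Psmb11-deficient and 1603 and 1466 TPM in WT mTEC hi, and 935 and 939 TPM in Psmb11-deficient and 885 and 909 TPM in WT mTEC lo. Spink genes held 392 and 496 TPM in Psmb11-deficient and 394 and 374 TPM in WT mTEC hi, and 138 and 158 TPM in Psmb11-deficient and 166 and 146 TPM in WT mTEC lo. The genotypes overlapped in 4 of these 6 sums, all but those of Klk and Serpinb in mTEC lo. With 2 libraries against 2 an absence of overlap is common, and by CPM it was seen for 36.2% of all genes in mTEC lo. Among mTEC lo libraries with conflicting labels, Klk genes held 177 TPM under the WT title, above both Psmb11-deficient values, and 139 TPM under the knockout title. Serpinb genes held 893 TPM under the WT title and 843 TPM under the knockout title, the latter below both WT values.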

How the data were processed

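RNA from sorted mTECs, purified with TRIzol and RNeasy columns, went into TruSeq libraries, per the labels' protocols. The authors deposited read counts per gene and RSEM tables with expected counts, their posterior standard deviation (another value, in reads) and TPM. CASAVA 1.8.2, STAR 2.5.1b, RSEM 1.2.28 and the build name GRCh38 are listed in the submitters' processing notes, although the identifiers are of mouse genes. The annotation and counting rule are not given in the sources used here. Of the deposited count columns the one that ignores strand was used, since both strand columns held about equal shares. Rows that name no gene (21.5% to 27.8% of the counts) were left out. RSEM totals were 0.507 to 0.535 of the read totals. Symbols and coordinates came from GENCODE M21 (GRCm38), which matched 50376 of 50600 identifiers, and sequences from RefSeq.

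All genes with sufficient counts (filterByExpr in edgeR 4.0.16, count minimum 10, total minimum 15) were scaled by TMM and tested by the quasi-likelihood F test (R 4.3.3, limma 3.58.1), with Benjamini-Hochberg adjustment over all genes and a threshold of 0.05. The contrast of mTEC hi with mTEC lo used 12 libraries, with the genotype as labelled (Psmb11-deficient, WT or conflicting) in the model. Genotypes and their interaction were contrasts of a model of 4 groups over 8 libraries. The fits were tested on simulated data. No libraries of a cell type agreed within sampling noise. The alternatives were RLE factors, library size alone, DESeq2 1.42.0, no filter, rounded RSEM counts, replicate blocks, genotype by title or by source name, 8 libraries, no covariate, a 1.5-fold test and leaving out each library.

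Members and lists were chosen with earlier results of these data known. Values are given, in each family, for up to 6 rises and 4 falls, the largest among called members that had at least 1 CPM and moved alike in all 6 same-title pairs. They are also given for the 3 members of highest TPM in each cell type, for the lowest p between genotypes, and for the 3 largest rises and falls of each list. Other members with at least 1 CPM may be named. The protease Ctsv had no match among the identifiers.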

Additional observations from a re-analysis of the deposited data

Results flagged for a closer look

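In 47 groups of 6 libraries, members were examined for a library that stood far from the other 5, which chance gives in about 1 in 20 groups, and 3 were found. Serpinb9b stood at 19.79 CPM in the mTEC hi library of replicate 3 with conflicting genotype labels, against 14.52 to 16.16 CPM in the other mTEC hi libraries. Spink10 stood at 4.009 CPM in the mTEC hi library of replicate 1 with conflicting labels, against 2.616 to 3.057 CPM in the others. Spink12 stood at 5.613 CPM in Psmb11-deficient replicate 2 of mTEC lo, against 3.152 to 3.520 CPM in the others. No call on these 3 genes between mTEC hi and mTEC lo was lost without the library concerned.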

How the results depend on the processing

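Of the 65 tested members 60 had a value under every alternative, and 51 of these kept their direction and their side of the threshold between mTEC hi and mTEC lo in all of them. The other 5 (Serpinb1-ps1, Serpinb9c, Spink6, Spink14 and Klk1b14-ps) did not pass the filter with RSEM counts, where 58 members were called, and kept their calls under the rest. None of the 65 reversed. The alternatives that changed the remaining 9 were a test against 1.5-fold, no filter, 8 libraries, library size alone, the replicate blocks and leaving out 1 library. Against a change of 1.5-fold, 2 lower members remained called in place of 4, both Serpinb, and the calls of Serpinb8, Klk11, Klk1, Serpinb1a, Serpinb6b, Serpinb6c and Serpinb6a were lost. Klk11 was also lost over the 8 libraries without label conflicts (edgeR adjusted p = 0.0545), and Serpinb6c with library size alone (edgeR adjusted p = 0.0529). The number of lower Spink genes was 1 in place of 0 with no filter, with the replicate block on the number in the title and with the block on the 6 same-title pairs, and 0 to 1 when each library was left out. That gene was Spink5, with an edgeR adjusted p of 0.000988 with no filter, 0.0219 and 0.0155 with the blocks, 0.0108 without Psmb11-deficient replicate 2 of mTEC hi and 0.0336 without Psmb11-deficient replicate 1 of mTEC lo. Serpinb9e passed as lower with no filter (edgeR adjusted p = 0.0444) and without replicate 3 of mTEC lo with conflicting labels (0.0357).

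Between genotypes in mTEC lo the count of members called was 1 with DESeq2, 4 with no filter and 0 to 5 when each library was left out, in place of 0. It was 3 without Psmb11-deficient replicate 1 and 5 without Psmb11-deficient replicate 2 of mTEC lo, where that arm held 1 library, which was assumed to vary like the others. Klk1b8 passed under DESeq2 (adjusted p = 0.000507) and with no filter (edgeR adjusted p = 2.53e-05). Without replicate 1 or replicate 2 of Psmb11-deficient mTEC lo its log2 fold change was 1.32 or 1.77. The count for the interaction was 4 with no filter and 0 to 1 when each library was left out. The cause of these changes was not tested. Libraries with the same number in the title deviated together only weakly (correlations of 0.00689 to 0.222), and 3 of 6 correlated best with their own number, so the numbers were not taken as pairs. With 2 libraries per genotype, small differences were not detectable.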
